A study of Mus musculus with 12 samples.

Results

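The skin of a mouse labelled saliva immune was compared with the skin of mice exposed to ticks for the first time, 1 RNA-seq library of 12 against 3 of 12. The saliva immune library was chosen by its label alone, and its sample title belongs to the same numbered series as the titles of the 3 first exposure libraries. Every gene was placed against the range of those 3 libraries and against the range of all 11 other libraries. With 1 library in the group there is no test and no replicate error for any saliva immune value, so all differences below are descriptions of these libraries and not of the conditions.

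All 12 libraries came from total RNA of mouse skin. The saliva immune, first exposure, ticks 2x (n = 3) and ticks 3x (n = 3) skins were bitten and sampled 4 days after the tick bite, and the naïve skins (n = 2) are labelled as not bitten, although their labels carry the same day after a bite. The ticks 2x, ticks 3x and naïve libraries share a second title series, and they are called the other 8 libraries here. The labels give neither the strain, sex or age of the mice nor the tick species, do not say how saliva immunity was raised, and do not say whether each library is a separate animal.

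A tick feeds for days and releases saliva into the skin, and animals that have met that saliva can mount a recall reaction at the bite. In type 2 immunity, interleukin-4 and interleukin-13 signal through the interleukin-4 receptor and the transcription factor STAT6, which switches macrophages to an alternatively activated state and keratinocytes and fibroblasts to the release of eotaxins. Eotaxins draw eosinophils through the receptor Ccr3, and interleukin-5 keeps eosinophils alive. Levels below are CPM, a gene's reads scaled to a common library total and not by gene length. A distance is a difference of log2(CPM + 1), which understates the change of genes with few reads.

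The libraries differed in tissue make-up before any comparison of immune genes. The saliva immune library held almost no hair follicle RNA: its mean log2(CPM + 1) over 25 hair follicle genes was 0.72, against 9.10, 9.42 and 1.62 in first exposure replicates 1, 2 and 3. The 12 melanocyte genes followed the same split, with means of 1.14 against 5.88, 6.596 and 1.39. Of the 3, first exposure replicate 3 was nearest to saliva immune skin in both, and it was also the highest of the 3 in the list means for eosinophils, macrophages, T cells, MHC class II and both chemokine lists. Keratinocyte genes averaged 8.57 in saliva immune skin and 8.34, 7.99 and 8.71 in first exposure skin, fibroblast genes 7.77 against 7.47, 7.03 and 7.999, skeletal muscle genes 8.60 against 8.18, 8.42 and 8.94, and adipocyte genes 7.59 against 7.35, 6.62 and 7.09. The part of this make-up in the results was not tested. The other 8 libraries differ from the saliva immune library in title series as well as in treatment, which cannot be told apart. Every gene called higher was by construction at least 1 above replicate 3 as well, and set against replicate 3 alone saliva immune skin had 296 genes higher and 139 genes lower. Estimated depth was 25.6 M reads in the saliva immune library and 28.6, 17.9 and 23.2 M reads in the first exposure libraries, within 12.5 to 29.8 M over the series, and 3 reads corresponded to 0.117 CPM in the saliva immune library.

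**Figure D1:**
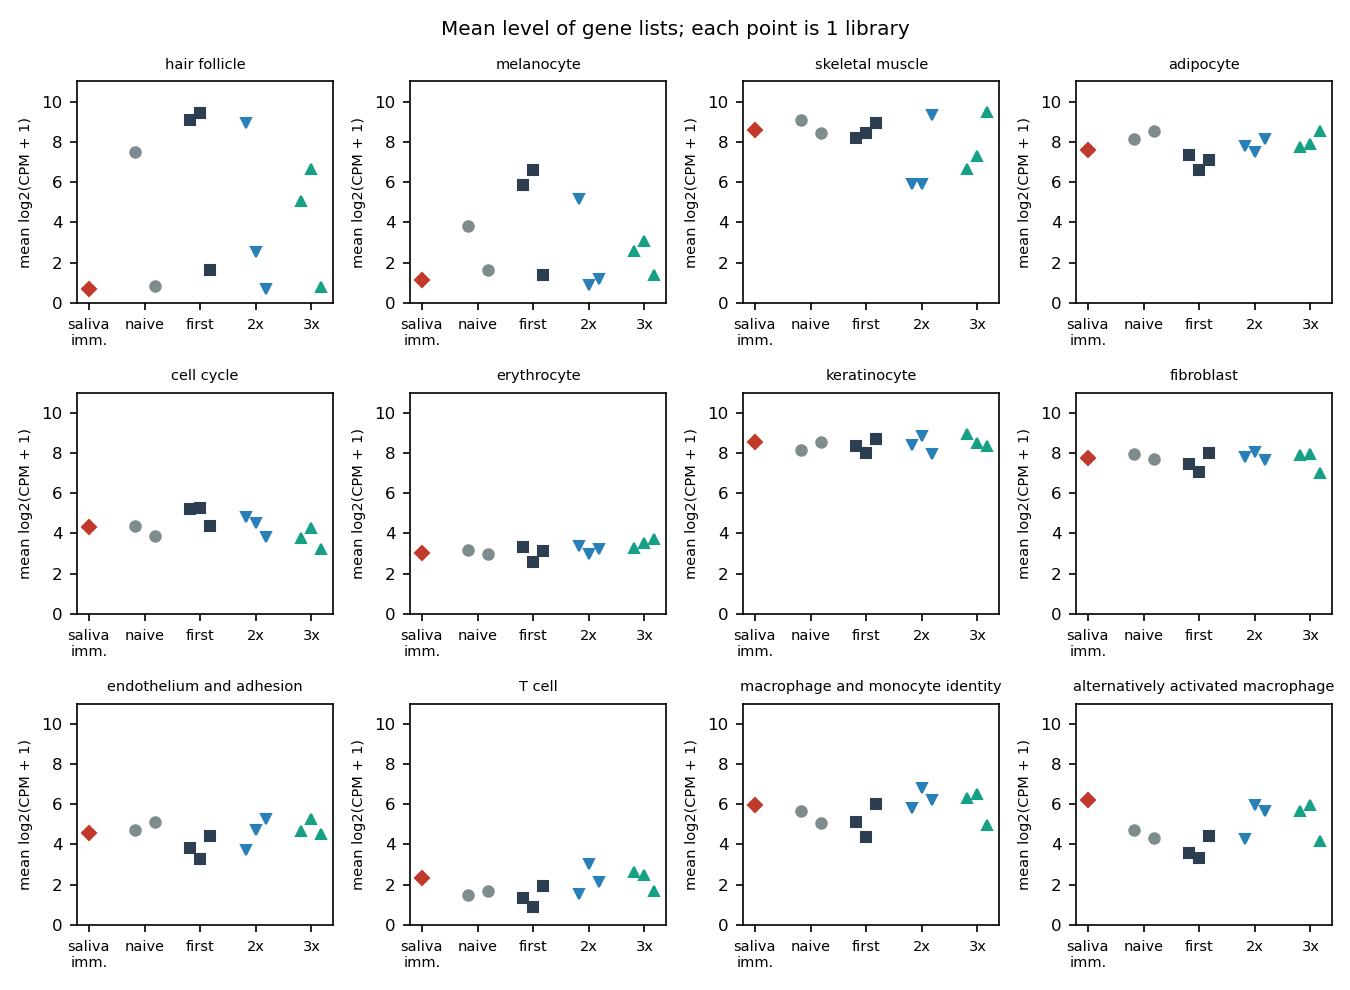
Mean log2(CPM + 1) over the members of 12 gene lists (y axis), with 1 point per library and the groups along the x axis (saliva immune, naïve, first exposure, ticks 2x, ticks 3x). The hair follicle mean is 0.72 in saliva immune skin and spreads from 1.62 to 9.42 within first exposure, while the alternatively activated macrophage mean is 6.21 in saliva immune skin and at most 5.94 elsewhere.

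Over 15847 genes with a mean of at least 1 CPM, the saliva immune library lay above all 3 first exposure libraries for 4132 genes (26.1%) and below all 3 for 3693 genes (23.3%). A gene was called when it lay at least 1 beyond the range. That held for 226 genes on the higher side (1.43%) and 22 genes on the lower side (0.139%). These counts rested on first exposure replicate 3: without it, 1073 genes were called higher and 1090 lower, so that higher calls no longer outnumbered lower ones. At shares of 1.43% and 0.139%, a short list would often hold no called gene, so none called says little about a list. The median difference from the mean of first exposure was 0.0054 over all genes, so the middle of the distribution was not shifted. Of the 226 genes, 101 were at their highest of all 12 libraries in saliva immune skin, and 26 stood at least 1 above all 11 other libraries (0.164% of the genes tested). The mean behind the filter counts the saliva immune library. Of the 26, Nefl, Duoxa2, Gm3488 and 2610042L04Rik reached 1 CPM only with it, so their place in this count depends on that library. A single gene, Ctgf, stood at least 1 below all 11 (0.00631%). At the threshold, Ccl2 (distance 1.00, 42.2 CPM in saliva immune skin), AI606473 and Rasal3 (both 1.01) were just inside, and Il18rap (0.996), Mup10 (0.998) and Apln (0.998) were just outside.

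**Figure D2:**
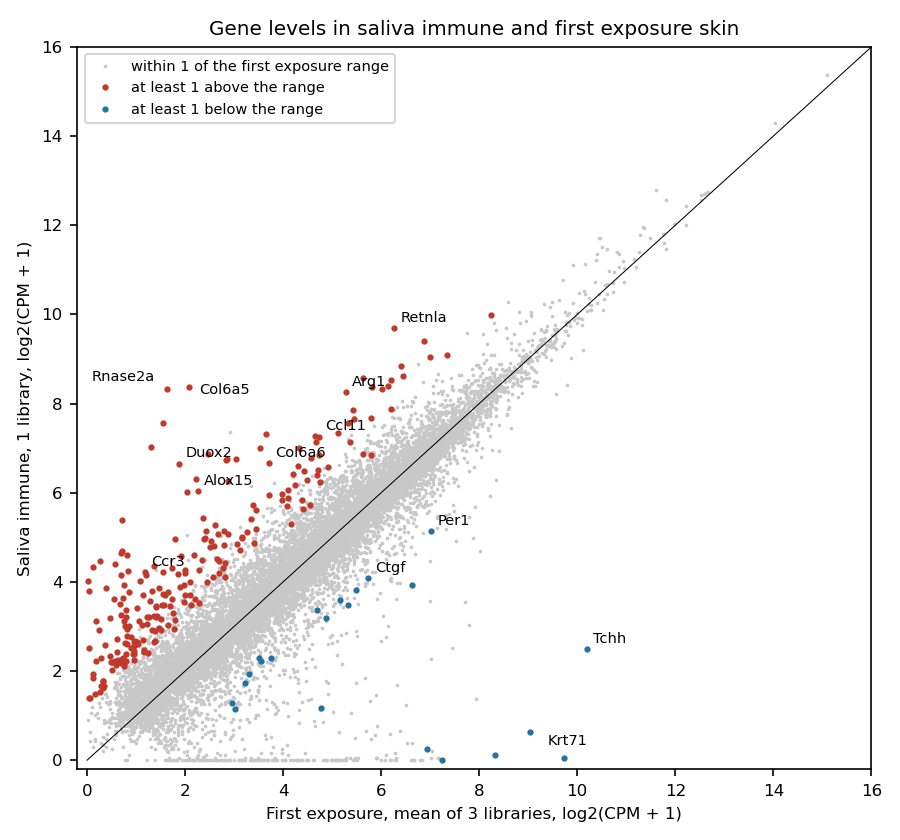
Each point is 1 of 15847 genes, with log2(CPM + 1) in the saliva immune library on the y axis and the mean of the 3 first exposure libraries on the x axis. The 226 genes at least 1 above the first exposure range are red, the 22 at least 1 below it are blue, and the line marks equal levels.

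The hydrogen peroxide generator of the epithelium was among the genes furthest above the first exposure range. Dual oxidase makes hydrogen peroxide at the cell surface, and each of its 2 forms needs a maturation factor to leave the endoplasmic reticulum. Duox2 (chromosome 2, 122279246 to 122298740, GRCm38) had 99.6 CPM in saliva immune skin, against 2.95, 1.47 and 4.04 CPM in first exposure skin and 2.45 to 19.1 CPM in the other 8 libraries. Its maturation factor Duoxa2 had 21.0 CPM, against 0.210, 0.112 and 0.302 CPM, with at most 3.74 CPM in the other 8. Duoxa2 passed the filter only with the saliva immune library counted in the mean. No other library came near saliva immune skin for either gene: the distances were 4.32 above the first exposure range and 2.32 above all 11 libraries for Duox2, and 4.08 and 2.22 for Duoxa2. Duox2 was at 24.6 times its highest first exposure level.

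The neighbouring pair Duox1 and Duoxa1 stood less far above the range. Duox1 had 65.6 CPM in saliva immune skin and 20.9, 15.0 and 34.3 CPM in first exposure skin, highest of the 12 libraries but 0.92 above the range and so not called. Duoxa1 had 26.1 CPM, against 12.7, 10.5 and 19.8 CPM. The list of dual and NADPH oxidases also holds partner genes such as Duoxa2 and the nitric oxide synthase Nos2. Of its 14 measured genes, 10 lay above the range, 1 below it, and 4 were called higher (Duox2, Duoxa2, Nos2, Ncf4). Over all genes, 26.1% lay above the range and 1.43% were called higher. The list median was 1.39, beside 0.0054 over all genes. Nos2, the inducible nitric oxide synthase, had 24.0 CPM, against 0.699, 0.446 and 0.733 CPM, and ticks 2x replicate 3 was higher still at 30.3 CPM. Ncf4, a cytosolic subunit of the phagocyte oxidase, had 30.5 CPM, against 8.005, 4.18 and 14.0 CPM, and ticks 2x replicate 2 reached 36.4 CPM. Cybb, the catalytic subunit of that phagocyte enzyme, lay inside the range at 36.3 CPM, against 27.4, 14.7 and 49.9 CPM. Nox4, the oxidase of stromal cells, lay below it at 6.55 CPM, against 10.2, 7.97 and 23.2 CPM.

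Duox2 and Duoxa2 are transcribed away from each other, and the windows around their starts are shown because the pair was high together. Each window holds 250 bases before and 50 bases after 1 RefSeq transcript start (GRCm38.p6, 5′ to 3′ on the gene's strand), which need not be the outermost start of the gene. The Duox2 window is chr2:122298178-122298477 on the minus strand and the Duoxa2 window chr2:122298650-122298949 on the plus strand. The Duox2 window surrounds a start at 122298227, 513 bases inside the outer end of the gene span given above, and the Duoxa2 window surrounds the outermost start of its gene, 122298900. Neither window held the motif searched for below, so no letters are in capitals.
Duox2: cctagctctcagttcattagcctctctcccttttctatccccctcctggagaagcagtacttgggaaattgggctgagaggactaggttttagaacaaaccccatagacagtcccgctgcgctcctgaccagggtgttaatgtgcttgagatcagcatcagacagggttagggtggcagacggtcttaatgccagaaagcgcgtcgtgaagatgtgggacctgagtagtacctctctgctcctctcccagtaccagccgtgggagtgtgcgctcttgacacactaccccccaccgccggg
Duoxa2: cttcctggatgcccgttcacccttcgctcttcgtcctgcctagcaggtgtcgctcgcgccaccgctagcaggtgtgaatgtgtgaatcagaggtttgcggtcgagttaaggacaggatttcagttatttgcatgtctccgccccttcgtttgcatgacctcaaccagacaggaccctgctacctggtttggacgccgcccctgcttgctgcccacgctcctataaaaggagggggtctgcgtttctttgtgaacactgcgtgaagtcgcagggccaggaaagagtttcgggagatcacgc

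Eosinophil genes lay above first exposure levels throughout the measured list. Of 11 listed genes, 3 were not used here and 2 were under the filter on low values, and all 6 others lay above the first exposure range. Of these 6, 4 were called (Siglecf, Ccr3, Ear2, Il5ra), and the list median was 1.99. Over all genes, 26.1% lay above the range and 1.43% were called higher. Il5ra passed the filter only with the saliva immune library counted in the mean. In bulk skin, more cells of a type and more RNA per cell cannot be told apart. Siglecf, an inhibitory lectin that marks mouse eosinophils, had 11.5 CPM in saliva immune skin, against 0.664, 0.167 and 1.34 CPM in first exposure skin and at most 2.62 CPM in the other 8. Ccr3, the eotaxin receptor, had 17.7 CPM, against 0.874, 0.613 and 2.89 CPM, with at most 5.98 CPM elsewhere. Both stood clear of all 11 libraries, by 1.78 and 1.42. Il5ra, the interleukin-5 receptor chain, had 3.41 CPM, against 0.385, 0.335 and 0.853 CPM. Ear2, an eosinophil-associated ribonuclease with close copies in the genome, had 29.2 CPM, against 4.05, 1.62 and 13.3 CPM. Prg2, the major basic protein of eosinophil granules, was under the filter. It had 1.17 CPM, was listed at 0 in all 3 first exposure libraries and reached 0.373 CPM in ticks 2x replicate 3. Adgre1 and Adgre4, which macrophages express as well, lay above the range without being called.

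Most eotaxin and related chemokine genes were high in the same library. Of 5 eotaxin and related chemokine genes, 4 lay above the range and 3 were called, with a median of 2.53. Over all genes, the shares were 26.1% and 1.43%. Ccl11, eotaxin-1, had 152 CPM in saliva immune skin, against 21.5, 15.3 and 49.5 CPM in first exposure skin, and its distance of 1.60 above the range was accompanied by one of 1.20 above all 11 libraries. Ccl24, eotaxin-2, had 22.9 CPM, against 5.03, 6.18 and 16.3 CPM. That is above the range but 0.47 from it, and naïve replicate 1 had 35.2 CPM. Ccl7 had 78.1 CPM, against 2.34, 0.446 and 20.01 CPM, and Ccl8 had 383 CPM, against 48.0, 31.7 and 73.8 CPM. Ccl7 is a monocyte chemoattractant that also binds Ccr3. Both genes were exceeded in repeat exposure libraries, up to 141 CPM for Ccl7 and 990.1 CPM for Ccl8. Ccl5 was inside the range at 0.507 CPM.

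The type 2 cytokines themselves were rare transcripts, and Il4, Il5 and Il13 were all under the filter of a mean of 1 CPM. Il13 had 3.94 CPM in saliva immune skin, about 101 reads, against 0, 0.167 and 0.129 CPM in first exposure skin and at most 1.22 CPM in the other 8. Il5, named after its values were seen, had 3.47 CPM, about 89.0 reads, against 0, 0 and 0.0432 CPM, and no other library exceeded 0.370 CPM. Il4 had 2.07 CPM, against 0.105, 0.223 and 0.259 CPM. Unlike Il5 and Il13 it was not highest in saliva immune skin, since ticks 3x replicate 2 had 2.76 CPM. Il10 had 6.59 CPM, against 0.105, 0.0558 and 0.431 CPM, and reached 11.6 CPM elsewhere. Ifng, the type 1 cytokine, was at 0.0781 CPM, against 0, 0 and 0.0864 CPM, below the level of 3 reads in all 4 libraries. Of 13 measured type 2 cytokine and receptor genes, 5 were called higher (Il13ra2, Il4ra, Il5ra, Il31ra, Il1rl1) and 1 lower (Areg), with a median of 0.87. Over all genes, 1.43% were called higher and 0.139% lower. Il5ra passed the filter only with the saliva immune library counted in the mean.

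Some receptors of this axis lay above the range. Those named here were picked because they were called, so their distance cannot be weighed against that of Stat6 and Gata3. Il4ra, the shared receptor chain for interleukin-4 and interleukin-13, had 332 CPM in saliva immune skin, against 45.2, 31.5 and 115 CPM in first exposure skin. Ticks 2x replicate 2 was higher at 493 CPM. Il13ra2, the decoy receptor of interleukin-13, had 8.50 CPM, against 0.804, 0.613 and 0.431 CPM, the highest of the 12 libraries. Il1rl1, the interleukin-33 receptor, had 48.0 CPM, against 8.81, 4.57 and 22.7 CPM, and ticks 2x replicate 2 had 59.2 CPM. Stat6 and Gata3, the transcription factors of the pathway, were near the range, with 153 CPM against 102, 83.4 and 143 CPM for Stat6 and 353 CPM against 258, 242 and 399 CPM for Gata3. Il33, the alarm cytokine of barrier cells, had 208 CPM, against 33.6, 16.8 and 133 CPM, above the range by 0.64. Tslp, a second such cytokine, lay inside the range at 5.77 CPM, against 2.55, 1.62 and 7.85 CPM.

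**Figure D3:**
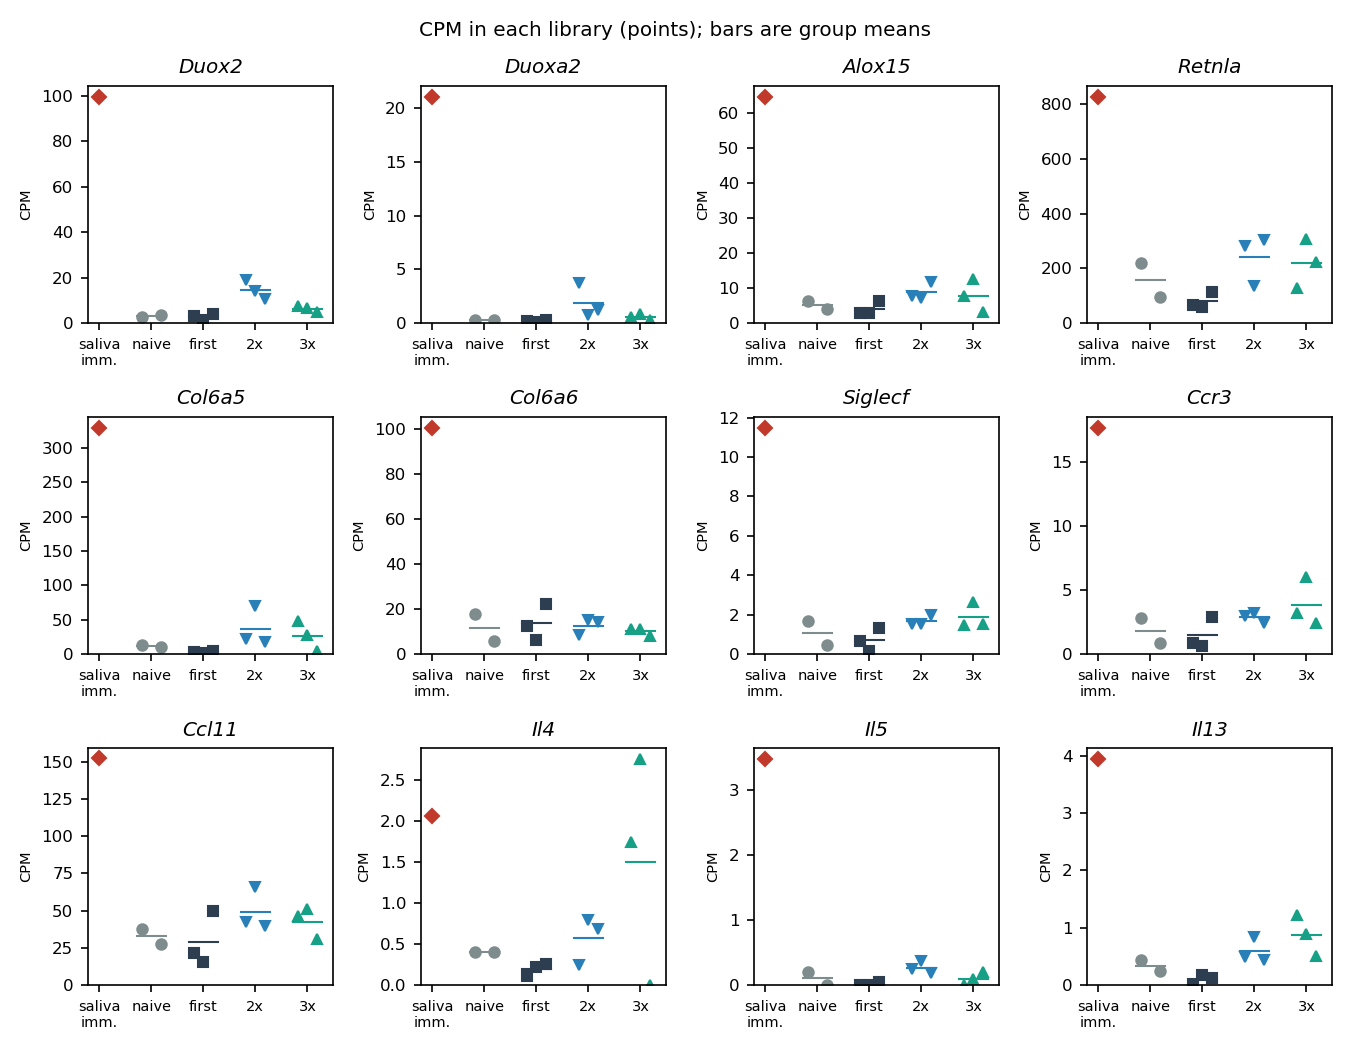
CPM (y axis, from 0) of 12 genes in each of the 12 libraries, with 1 point per library and a bar at the mean of each group of 2 or 3 libraries. Saliva immune skin is the highest point for all genes shown except Il4, for which ticks 3x replicate 2 is higher (2.76 against 2.07 CPM).

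Among the lists with at least 10 measured genes, genes of alternatively activated macrophages had the highest share called. All 17 measured members lay above the first exposure range, 14 were called, and the median was 2.44. Over all genes, 26.1% lay above the range and 1.43% were called higher. General macrophage and monocyte genes did not follow to that extent: 6 of 20 lay above the range, 1 was called (Cd163), and their list mean of 5.98 in saliva immune skin was close to the 6.00 of first exposure replicate 3. Retnla (chromosome 16, 48842609 to 48844461), the resistin-like protein secreted by macrophages under interleukin-4, had 828 CPM, against 67.4, 57.3 and 112 CPM in first exposure skin and 94.1 to 308 CPM in the other 8. Its distance was 2.88 above the range and 1.43 above all 11 libraries. Chil4, a chitinase-like protein with close copies, had 15.3 CPM and was listed at 0 in first exposure replicates 2 and 3, while ticks 2x replicate 2 had 10.5 CPM and ticks 3x replicate 1 had 10.04 CPM. Pdcd1lg2, the ligand PD-L2 that interleukin-4 induces, had 13.6 CPM, against 0.210, 0 and 0.820 CPM, and ticks 2x replicate 2 matched it at 13.4 CPM. Arg1, arginase 1, had 306 CPM, against 31.9, 37.1 and 45.4 CPM, and 3 repeat exposure libraries had more, up to 445 CPM.

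Alox15, the enzyme that oxygenates arachidonic and linoleic acid and is found in eosinophils and interleukin-4 treated macrophages, set saliva immune skin apart from every other library. It had 64.6 CPM (chromosome 11), against 2.90, 2.90 and 6.21 CPM in first exposure skin and at most 12.6 CPM in the other 8, a distance of 3.19 above the range and 2.27 above all 11. Ltc4s, the leukotriene C4 synthase of eosinophils and mast cells, had 21.9 CPM, against 4.65, 4.12 and 7.38 CPM, 1.01 above all 11 libraries. Ptgis, prostacyclin synthase, had 37.8 CPM, against 4.12, 1.45 and 17.2 CPM. Of 23 lipoxygenase and prostanoid genes, these 3 were called and 5 lay below the range, with a median of 0.97. Over all genes, 1.43% were called higher and 23.3% lay below the range. Hpgd, which breaks prostaglandins down, was lowest of the 12 libraries at 12.6 CPM, against 26.5, 26.8 and 20.7 CPM. Ptgs2, the inducible cyclooxygenase, lay inside the range at 6.28 CPM, against 5.31, 1.89 and 15.9 CPM.

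Promoter windows were searched for TTCNNNNGAA, the spacing that STAT6 prefers, on both strands, where it reads the same. Of 11464 genes that passed the filter and have a RefSeq window, 745 held it (6.5%), and over all 32851 windows the share was 6.95%. Of the 155 genes called higher with a window, 15 held it (9.68%). A match describes letters and not a bound site. The windows of 4 called genes are shown because they held a match, which is in capitals: Retnla (chr16:48842359-48842658, plus strand, match from base -145), Pdcd1lg2 (chr19:29410669-29410968, plus strand, -82), Cd209e (chr8:3854237-3854536, minus strand, -79) and Mrgprg (chr7:143766944-143767243, minus strand, -2). Each of these 4 windows surrounds the outermost start of its gene. The windows of Col6a5, Col6a6, Siglecf, Ccr3, Chil4, Duox2 and Duoxa2 held none, and those of Col6a5, Col6a6 and Ccr3 lie at starts 1820, 161 and 4146 bases inside the gene.
Retnla: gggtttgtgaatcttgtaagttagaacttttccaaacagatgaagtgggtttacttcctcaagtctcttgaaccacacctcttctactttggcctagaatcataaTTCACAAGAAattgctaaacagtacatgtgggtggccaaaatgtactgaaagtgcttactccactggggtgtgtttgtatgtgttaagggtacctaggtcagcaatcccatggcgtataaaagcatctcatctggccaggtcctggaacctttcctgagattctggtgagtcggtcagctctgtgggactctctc
Pdcd1lg2: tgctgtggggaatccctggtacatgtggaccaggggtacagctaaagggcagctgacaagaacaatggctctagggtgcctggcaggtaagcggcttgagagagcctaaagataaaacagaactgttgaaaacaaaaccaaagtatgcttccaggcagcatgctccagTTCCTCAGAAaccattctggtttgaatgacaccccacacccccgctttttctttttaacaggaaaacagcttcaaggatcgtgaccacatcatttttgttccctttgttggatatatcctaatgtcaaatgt
Cd209e: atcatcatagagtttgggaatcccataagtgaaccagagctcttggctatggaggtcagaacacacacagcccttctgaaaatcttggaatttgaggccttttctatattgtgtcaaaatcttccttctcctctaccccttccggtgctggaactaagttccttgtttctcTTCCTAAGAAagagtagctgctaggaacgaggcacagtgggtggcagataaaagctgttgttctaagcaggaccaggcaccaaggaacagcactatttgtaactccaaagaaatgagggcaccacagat
Mrgprg: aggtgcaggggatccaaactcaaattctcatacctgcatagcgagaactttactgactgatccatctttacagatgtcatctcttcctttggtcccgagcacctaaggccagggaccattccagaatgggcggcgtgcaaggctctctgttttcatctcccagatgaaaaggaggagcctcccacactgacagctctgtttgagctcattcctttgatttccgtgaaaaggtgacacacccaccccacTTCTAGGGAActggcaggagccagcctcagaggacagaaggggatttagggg

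Collagen VI forms beaded filaments around cells in the dermis, built from an alpha 1 chain, an alpha 2 chain and 1 of several further long chains. Saliva immune skin was high in the alpha 5 and alpha 6 chains. Col6a5 (chromosome 9, 105856070 to 105962463), the gene furthest above the first exposure range of all 226, had 329 CPM, against 3.16, 2.17 and 4.76 CPM in first exposure skin and 4.60 to 69.9 CPM in the other 8. The distance was 5.84 above the range and 2.22 above all 11 libraries, and the level was 69.0 times the highest first exposure level. Its neighbour Col6a6 (chromosome 9, 105689417 to 105828246) had 101 CPM, against 12.4, 6.13 and 22.3 CPM, and at most 17.7 CPM elsewhere. The chains needed by every filament were higher by less: Col6a2 had 1015 CPM, against 315, 205 and 427 CPM, and Col6a1 had 901 CPM, against 319.8, 214 and 458 CPM, the first called and the second 0.98 above the range. Col6a3, the common long chain, was inside the range at 385 CPM, against 309, 213 and 397 CPM. Col6a4, under the filter, was lowest of the 12 libraries at 0.0781 CPM, about 2.00 reads and so under 3 reads, against 2.27, 3.06 and 0.302 CPM. Its higher values were in replicates 1 and 2, which held most of the hair follicle RNA of the first exposure libraries. So within 1 family the long chains differed in position, with Col6a5 and Col6a6 above the range and Col6a3 within it. Col6a4 lay 0.27 below the range, on too few reads to be weighed with them.

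Few of the fibrillar and basement membrane collagens lay above the range. Of 17 measured, 1 was called (Col5a3, with 542 CPM against 173, 116 and 213 CPM), 2 lay above the range and 4 below it. Over all genes, 1.43% were called higher, 26.1% lay above the range and 23.3% below it. Col1a1, the main fibrillar collagen of dermis, lay inside the range at 2718 CPM, against 1699.8, 1013 and 3366 CPM. Plod2, a lysyl hydroxylase of collagen cross-links chosen after its values were seen, had 140.3 CPM, against 31.6, 28.4 and 16.2 CPM, and stood 1.29 above all 11 libraries. Of 18 matrix proteases and inhibitors, 4 were called (Mmp9, Adamts4, Mmp13, Mmp25) with a list median of 0.43. For Mmp9, the gelatinase of neutrophils and macrophages, saliva immune skin had 51.6 CPM, against 10.1, 4.35 and 17.8 CPM, and repeat exposure libraries reached 235 CPM.

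Basophil and mast cell genes gave unequal pictures. Mcpt8, the basophil protease, had 2.61 CPM in saliva immune skin, about 67.0 reads, against 0.0700, 0.0558 and 0.129 CPM in first exposure skin. It was called with a distance of 1.68, but 4 of the 6 repeat exposure libraries were higher, up to 7.57 CPM. Csf2rb2, a receptor chain for interleukin-3 with a close copy next to it, had 88.2 CPM, against 19.5, 11.98 and 36.6 CPM, and up to 111 CPM elsewhere. These 2 of 10 measured basophil genes were called, and 8 of 10 lay above the range. None of 13 connective tissue mast cell genes was called, near the 1.43% called higher over all genes. Of these 13 genes, 1 lay above the range, beside 26.1% of all genes, and 2 below it, beside 23.3%. Mcpt4, a mast cell chymase, was inside the range at 79.2 CPM, against 47.8, 22.7 and 111 CPM.

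T cell genes lay above the range in small steps. Of 17 measured, 15 were above it and 1 was called (Icos, the inducible costimulator, with 3.51 CPM against 0.245, 0.724 and 0.992 CPM), for a list median of 1.01. Over all genes, 26.1% lay above the range and 1.43% were called higher. Icos reached 14.3 CPM in the other 8 libraries. Cd4 had 3.35 CPM, against 0.664, 0.334 and 1.55 CPM, and up to 15.1 CPM in repeat exposure libraries. Among regulatory T cell genes 2 of 10 were called, Il10 (above) and Il2ra, the interleukin-2 receptor alpha chain, which was highest of the 12 libraries at 10.1 CPM, against 2.29, 0.665 and 3.45 CPM. All 9 measured MHC class II genes lay above the range and none was called. Cd74, the invariant chain, had 760.3 CPM, against 242, 130.1 and 631 CPM, and H2-Aa had 368 CPM, against 116, 66.0 and 340.2 CPM. Their median difference of 1.41 rested on replicates 1 and 2, since replicate 3 was within 0.27 of saliva immune skin for both.

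Of 7 measured B cell and antibody genes, none was called, near the 1.43% called higher over all genes, while 3 lay above the range and 1 below it. Sdc1, a plasma cell marker that keratinocytes express as well, was below it at 335 CPM, against 658, 684 and 370.4 CPM, and Xbp1, a factor of secretory cells, was above it by 0.24. Among the immunoglobulin genes, named after their values were seen, Ighe was listed at 0 in all 4 libraries of the comparison. Ighg1 had 0.0810 CPM in saliva immune skin, under 3 reads, and Igkc, also under the filter, was highest of the 12 libraries at 0.921 CPM, about 23.6 reads, against 0.0133, 0.00574 and 0 CPM, which is less than 1 read in each first exposure library. Of 14 Fc receptor genes, 1 was called, beside 1.43% called higher over all genes. It was Fcgr2b, the inhibitory IgG receptor, which had 189 CPM, against 38.6, 18.6 and 80.8 CPM, and up to 319 CPM elsewhere.

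Monocyte and neutrophil chemokines lay above the first exposure range, and most of those named here were higher still in at least 1 repeat exposure library, Ccl6 being the exception. Over all genes, 1.43% were called higher and 26.1% lay above the range. Of 13 monocyte chemokine genes, 7 were called, 11 lay above the range, and the median was 1.87. Ccl6 had 672 CPM, against 92.7, 66.2 and 251 CPM, level with the highest of the other 8 at 665 CPM. Ccr1, the receptor for several of these ligands, had 32.7 CPM, against 4.86, 2.51 and 11.5 CPM, with up to 82.8 CPM elsewhere. Of 10 neutrophil chemokine and growth factor genes, 5 were called. Cxcl5 had 25.0 CPM, against 0.769, 0 and 1.47 CPM, and up to 203 CPM elsewhere, and Il6 had 11.3 CPM, against 0.175, 0.0558 and 1.55 CPM, and up to 92.9 CPM elsewhere. Neutrophil genes had 5 of 15 called. S100a9, a calcium-binding protein abundant in neutrophils, had 26.6 CPM, against 8.81, 3.29 and 3.41 CPM, and up to 273 CPM elsewhere. Ly6g, a defining neutrophil marker named after its values were seen, was at 0.0391 CPM, 1 read. It was low in every library, at most 0.634 CPM, so its level says little about saliva immune skin.

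The 226 higher genes could be sorted by whether another library exceeded saliva immune skin. Ticks 2x replicate 2 did so for 43.8% of them, ticks 3x replicate 2 for 30.1%, ticks 2x replicate 3 for 29.6% and ticks 3x replicate 1 for 23.0%. Ticks 2x replicate 1 did so for 0.442%, ticks 3x replicate 3 for 1.77%, and naïve replicates 1 and 2 for 3.54% and 5.31%. Over all genes tested the same shares ran from 35.1% to 55.1%. Cxcl5, Il6 and Ccl8 were exceeded in this way, and Duox2, Duoxa2, Alox15, Retnla, Col6a5, Col6a6, Siglecf, Ccr3 and Ccl11 were not exceeded in any library.

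**Figure D4:**
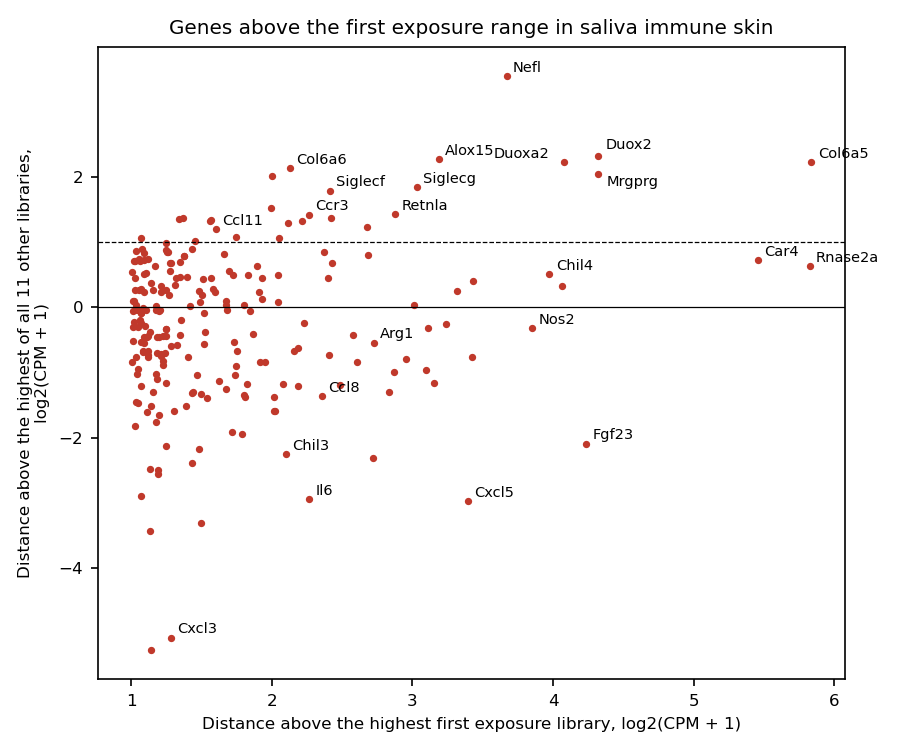
Each point is 1 of the 226 genes at least 1 above the first exposure range. The x axis is the distance above the highest first exposure library and the y axis the distance above the highest of all 11 other libraries, both in log2(CPM + 1). Points over the dashed line are the 26 genes at least 1 above all 11, and points under 0 are exceeded by another library.

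Wound and barrier genes of the epidermis were mixed. The small proline-rich genes Sprr2a1, Sprr2a2 and Sprr2a3, cross-linked into the cornified envelope of stressed epidermis, had 159, 106 and 107 CPM in saliva immune skin. First exposure skin had 7.64 to 17.7 CPM of Sprr2a1, 2.80 to 11.1 CPM of Sprr2a2 and 3.53 to 9.04 CPM of Sprr2a3. Ticks 3x replicate 1 had more of each than saliva immune skin, at 312, 238 and 182 CPM. These genes are nearly identical and how shared reads were assigned is not given in the sources used here, so they count as 1 signal. Krt6b, a keratin of injured epidermis, had 127 CPM, against 29.1, 30.4 and 7.61 CPM, and Krt16, its partner, had 141 CPM, against 50.3, 45.6 and 28.4 CPM. Both were higher in ticks 3x replicate 1, at 382 CPM for Krt6b and 289 CPM for Krt16. Krt6a, the closest relative of Krt6b, lay inside the range at 108 CPM, against 231, 223 and 37.9 CPM. Plau, the urokinase plasminogen activator, had 236 CPM, against 62.3, 53.5 and 115 CPM, the highest of the 12. Of 17 wound keratin and EGF ligand genes 3 were called higher and 1 lower, with a median of -0.20. None of 22 keratinocyte genes was called, beside 1.43% called higher and 0.139% called lower over all genes. Krt5 and Krt10, the keratins of basal and suprabasal layers, lay inside the range at 3994 and 7096 CPM, against 1659.5 to 4682 CPM and 1378 to 9099 CPM.

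Clotting and complement genes both had list medians above 0, and only clotting genes included called members. Of 20 coagulation and fibrinolysis genes, 6 were called, F5, F10 and F7 among them, and 11 lay above the range, with a median of 0.93. F5, coagulation factor V, was highest of the 12 libraries at 27.1 CPM in saliva immune skin, against 5.56, 6.57 and 3.45 CPM in first exposure skin. F10 and F7, factors X and VII, had 12.1 and 7.68 CPM, against at most 2.59 and 1.73 CPM in first exposure skin. F10 reached 16.4 CPM in the other 8 libraries. Of 20 complement genes, none was called, beside 1.43% called higher over all genes, so none called says little here. Of these 20, 9 lay above the range, beside 26.1% of all genes, with a median of 0.69. C3 had 1249 CPM, against 366, 186 and 822 CPM, and naïve replicate 1 had 1306 CPM. Of 22 type I interferon response genes, 1 was called, beside the same 1.43%: Mx1 had 12.1 CPM, against 4.18, 1.56 and 4.83 CPM.

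**Figure D5:**
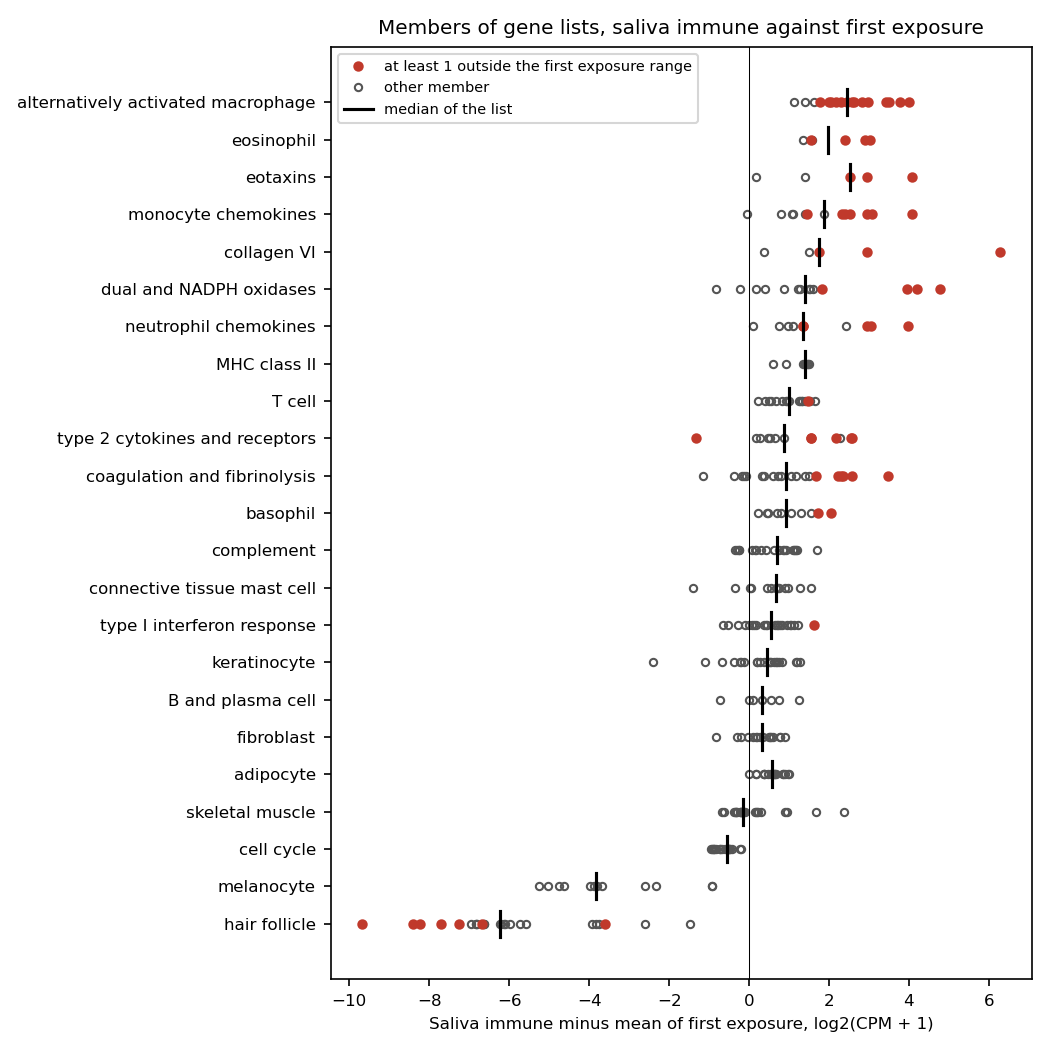
Difference in log2(CPM + 1) between the saliva immune library and the mean of the 3 first exposure libraries (x axis) for the measured members of 23 gene lists (y axis). Filled red points are genes at least 1 outside the first exposure range and black ticks are list medians, from 2.44 for alternatively activated macrophage genes to -6.24 for hair follicle genes, whose spread within first exposure keeps most of them uncalled.

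Several of the genes furthest above the range belonged to no list. Rnase2a (chromosome 14), a ribonuclease of the eosinophil-associated family with close copies, had 319.9 CPM in saliva immune skin, against 1.22, 1.34 and 4.66 CPM in first exposure skin, a distance of 5.83. Repeat exposure libraries ranged up to 206 CPM, and the naïve libraries had 6.01 and 2.80 CPM. Car4 (chromosome 11), a membrane-anchored carbonic anhydrase, had 189 CPM, against 1.57, 1.28 and 3.32 CPM, and up to 114 CPM in repeat exposure skin. Mrgprg (chromosome 7), an orphan receptor of the Mas-related family, had 129 CPM, against 1.08, 0.112 and 5.48 CPM, and at most 30.4 CPM elsewhere, 2.05 above all 11. Fgf23, the phosphate-regulating hormone known from bone, had 40.9 CPM, against 1.22, 0.167 and 0.690 CPM, and ticks 2x replicate 2 had 177 CPM. Cd209e, a lectin of the DC-SIGN family, had 63.5 CPM, against 2.69, 1.95 and 5.48 CPM.

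Nefl, the light chain of neurofilaments in axons, was furthest above all 11 libraries. It had 12.8 CPM (chromosome 14, 68083863 to 68089095), about 329 reads, was listed at 0 in first exposure replicates 1 and 2, had 0.0864 CPM in replicate 3, and did not exceed 0.186 CPM in the other 8. It passed the filter on low values through the saliva immune library alone, so its place depends on a filter that counts that library. Nefm, its heavier partner and chromosomal neighbour, had 1.48 CPM against 0, 0 and 0.216 CPM, and Nefh had 0.702 CPM against 0.0351, 0.0558 and 0.647 CPM. Prph, the remaining member of that family list, was listed at 0 against 0, 0.112 and 0.475 CPM. All 3 were examined after the Nefl values were seen and were under the filter. None of the 10 Schwann cell and nerve genes was called, near the 1.43% called higher over all genes. Further genes at least 1 above all 11, also picked after their values were seen, included Siglecg (16.7 CPM against 0.699, 0.167 and 1.16 CPM), an inhibitory lectin, Tdo2 (8.15 CPM against at most 0.431 CPM), a tryptophan-degrading enzyme, and Aldh1a2 (23.1 CPM against at most 3.496 CPM), which makes retinoic acid. Smpd3, a neutral sphingomyelinase, had 335 CPM, against 65.2, 45.1 and 112 CPM, and Daglb, a lipase that makes an endocannabinoid, had 161 CPM, against 31.5, 22.8 and 53.9 CPM. The predicted genes Gm3002, Gm3488 and 2610042L04Rik were in the same set of 26. They have close copies, so their reads are uncertain. Gm3488 and 2610042L04Rik also passed the filter only with the saliva immune library counted.

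Of the 22 genes called lower, 7 were keratins or trichohyalin of the hair follicle. Krt71, a keratin of the inner root sheath, had 0.0391 CPM in saliva immune skin, against 5848, 6698 and 14.5 CPM in first exposure skin. Tchh, trichohyalin, had 4.60 CPM, against 9175, 9484 and 17.7 CPM. In both the 3 first exposure libraries spanned a wider range than the step to saliva immune skin, and ticks 2x replicate 3, ticks 3x replicate 3 and naïve replicate 2 were at most 0.320 CPM for Krt71 and 5.83 CPM for Tchh. The 25 hair follicle genes had a median of -6.24 with 24 below the range, and the 12 melanocyte genes one of -3.84 with 9 below and none called. Of 21 cell cycle genes, 16 lay below the range, beside 23.3% of all genes, and none was called, at a median of -0.56. That median rested on replicates 1 and 2, since the list mean was 4.32 in saliva immune skin, against 5.20, 5.26 and 4.39 in first exposure skin.

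The other lower genes differed in how level they were across first exposure skin. Fam46b had 14.2 CPM in saliva immune skin, against 157, 179.9 and 33.0 CPM in first exposure skin, and Mfsd2a had 8.07 CPM, against 34.6, 32.0 and 20.9 CPM, both lowest of the 3 in replicate 3, which held the least hair follicle RNA of them. Ctgf, a secreted growth factor of connective tissue and a target of mechanical signals, had 15.99 CPM, against 56.8, 58.3 and 43.6 CPM in first exposure skin and 53.5 to 128 CPM in the other 8, 1.39 below every other library. Cyr61, its closest relative, chosen after its values were seen, lay inside the range at 59.9 CPM, against 32.1, 31.4 and 149 CPM. Dkk3, a secreted protein of the Dickkopf family, had 13.03 CPM, against 45.7, 49.1 and 38.2 CPM. Itgbl1, an integrin beta-like protein, had 10.2 CPM, against 38.8, 32.6 and 46.6 CPM. Penk, the enkephalin precursor, had 11.2 CPM, against 48.1, 30.4 and 28.7 CPM. Ctgf, Dkk3, Itgbl1 and Penk were all lowest of the 12 libraries in saliva immune skin. Areg, the EGF family ligand amphiregulin, had 3.71 CPM, against 8.49, 11.1 and 12.9 CPM, also the lowest of the 12.

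Per1, a clock gene that responds to light and glucocorticoids, had 34.1 CPM in saliva immune skin, against 111, 108 and 180.3 CPM in first exposure skin, and was called lower with a distance of 1.63. Ticks 2x replicate 1 came closest at 43.7 CPM. In a list of 15 clock genes drawn up after this was seen, Per1 was the only one called, 4 lay above the range and 4 below it. Over all genes, 26.1% lay above and 23.3% below. Nr1d1 lay inside it at 130.9 CPM, against 48.2, 39.3 and 131 CPM, and Per2 below it at 7.02 CPM, against 9.33, 9.42 and 9.06 CPM. The time of day of sampling is not given in the labels.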

How the data were processed

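The deposited table gives CPM for 25070 genes in 12 libraries of mouse skin RNA, and the authors added 0.0001 to every cell. STAR, Partek 8.0.19 and the build GRCm38.p6 are named per the submitters' processing notes; which program counted the reads, on which annotation and whether by strand, is not given in the sources used here. Low values were whole multiples of 1 read for 73.6% to 79.4% of cells (tolerance 0.02 reads), so whole reads were not recovered and no count model was used; the step gave estimated depths of 12.5 to 29.8 M reads.

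CPM were taken as log2(CPM + 1), with pandas 2.3.3 and numpy 2.4.6. Genes with a mean of at least 1 CPM over the 12 libraries were kept, and a gene was called when the saliva immune library lay at least 1 beyond the first exposure range. With 1 library no test was made. The calling step was run on simulated libraries drawn from a common mean, with far less spread than the first exposure libraries. That checks the code and says nothing about the calls in these data. Nothing in the labels says that libraries are separate animals, so spread among the 3 first exposure libraries may be technical.

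The members and the 46 gene lists (731 genes, 713 found, 18 not used here) were chosen with earlier results of these data known. Named genes were the 15 furthest above and the 15 furthest below the range with at least 5 CPM on the higher side, leaving out predicted genes; up to 4 called members of each list, or its 2 most abundant where none was called; and the key genes with their partners. Stat6, Tslp, Il5, Il33, Cybb, Nox4, Hpgd, Ptgs2, Krt6a, Ccl5, Adgre1, Adgre4, Ccl2, the immunoglobulin genes, the clock genes and the neurofilament partners were named after their values were seen. Of the symbols, 22654 (90.4%) matched RefSeq, which gave positions and promoter windows on GRCm38.p6. Of the deposited names, 25 had been turned into dates, and none of them is named here. Some results are not reported here. Alternatives were other pseudocounts, filters, scalings and thresholds, and leaving out libraries.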

Additional observations from a re-analysis of the deposited data

How the results depend on the processing

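The 226 genes above the first exposure range became 141 with a mean of at least 5 CPM and 58 at a distance of 2, and the 22 below it became 3 at a distance of 2, 42 and 94 with pseudocounts of 0.5 and 0.1 CPM, and 139 against first exposure replicate 3 alone. The 26 genes above all 11 libraries became 14 with a mean of at least 5 CPM and 8 at a distance of 2. The 1 gene below all 11 became 0 at a distance of 2, 2 with a pseudocount of 0.5 CPM, quantile normalization or totals without the top 50 genes, and 6 with a pseudocount of 0.1 CPM; the cause of these shifts was not tested. Leaving out single libraries gave 233 to 1073 genes above the first exposure range and 25 to 1090 below it, both highest without replicate 3. It gave 26 to 32 genes above all 11 and 1 to 4 below. Of the 226 genes, 209 were still called under median-of-ratios scaling, and of the 26, 25 under a filter of at least 1 CPM in 2 of the other 11 libraries. Signs were compared under other pseudocounts, other scalings and with single first exposure libraries left out, and not against replicate 3 alone. Of 153 named genes, 149 kept their sign in those settings (Cd63, Egr1, Fos and Krt19 did not). So did 43 of 46 list medians (immediate early, mammary epithelium and wound keratins did not). Against replicate 3 alone some signs differ: Col1a1 had 2718 CPM in saliva immune skin and 3366 CPM in replicate 3, with a main difference of 0.597. No paired analysis was possible because saliva immune skin is 1 library and no test was made. Depth limits genes near 3 reads, 0.117 CPM in the saliva immune library.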
